A study of Mus musculus with 9 samples.

Results

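The features described here were those that carried few reads in the uteri of mice that had received cells and more reads in the uteri of sham-operated and injured mice. They were selected on the measured values themselves. A feature was kept when its total over the 9 libraries was at least 90 counts, when every CRC library was below every sham and every injury library, and when the CRC mean was at most 50% of the sham mean and at most 50% of the injury mean, in CPM, the count as a share of the scaled library total. Of 55228 features in the files, 3243 had a total of at least 90, 145 of these met the limits, and 137 were kept. The 8 that met the limits and were left out by name were Col6a1, Col6a2, Col6a3, Gm13032, Gm48342, Gm9913, Naa35 and Rccd1. With library sums over all features in the CPM, 139 features were kept, with all 137 among them. Since the CRC, sham and injury levels chose the features, the low CRC level is a description and nothing is read from tests of it.

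All mice were wild-type C57BL females of 8 weeks. In the injury group a 27-gauge needle was rotated in the uterus and withdrawn 10 times and 50 µL of PBS was injected, in the CRC group the same damage was followed by a suspension of cells in the same volume, and the sham group had a sham operation, of which no details were given. CRCs are conditionally reprogrammed cells, here wild-type endometrial epithelial cells grown on irradiated 3T3 feeder cells, so that the model holds cultured cells placed in a host uterus that keeps its own stroma and muscle. Uterine horns were taken on day 7 and total RNA was sequenced after removal of ribosomal RNA, with 3 mice per group and 1 library per mouse.

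Features held 325384, 317754 and 327883 counts in the sham libraries, 290684, 280886 and 282937 in the injury libraries and 288619, 289964 and 290833 in the CRC libraries. These were between 0.776% and 0.898% of all records, because most reads lay in no feature, and 1 count was worth 3.33 to 4.01 CPM. The sham libraries stood apart from each other before any comparison. Reads that met more than 1 feature, as a percentage of the counts on features, came to 0.790 in sham replicate 1, 9.01 in sham replicate 2 and 7.58 in sham replicate 3, and to between 0.604 and 2.23 in the 6 other libraries. Without sham replicate 1 the same limits gave 127 features, of which 119 were among the 137, and with sham replicate 1 as the lone sham library they gave 116, of which 100 were among the 137.

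Many mammalian genes are overlapped by a gene read from the other DNA strand, as antisense RNAs, as pairs whose ends cross, or as genes inside an intron of another. Such partners can be transcribed independently of each other or together. The mouse uterus is built of a luminal and glandular epithelium, a stroma that supports it and responds to ovarian hormones, and layers of smooth muscle, the myometrium, whose contraction is driven through the oxytocin receptor.

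Some markers of the tissue had few counts in these libraries, where most reads lay in no feature. Actb, the cytoskeletal actin of all cells, had 0, 0 and 4 counts in the sham libraries, 0, 0 and 0 in the injury libraries and 1, 1 and 0 in the CRC libraries, although every nucleated cell makes it. Ptprc, the leukocyte antigen CD45, was at 0 in all 9 libraries, and Krt8, a keratin of the uterine epithelium, was counted 1, 0 and 0 times in the sham, 0, 0 and 1 times in the injury and 0, 0 and 0 times in the CRC libraries. Myh11, the myosin heavy chain of smooth muscle, was better covered, at 68, 81 and 78 counts for sham, 42, 45 and 35 for injury and 33, 20 and 57 for CRC libraries. Pgr, the progesterone receptor, had 67, 67 and 90, 57, 49 and 46 and 90, 77 and 76 counts in the same order of groups. Actb was chosen for the check after its values were seen, and the others are on the marker lists. The strand setting of the counting was not given in the sources used here. Whether the reads counted on a feature came from its own strand or from the other one cannot be told from the counts.

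The 137 features together held 64486, 62759.9 and 63626 CPM in the sham libraries, 61176, 59130.2 and 61363 CPM in the injury libraries and 17949.8, 19169 and 18165 CPM in the CRC libraries. In this sum every sham library lay above every injury library, by little, and the CRC libraries lay far below both, as the selection required. As shares of all counts on features, they made up 5.70%, 4.93% and 5.02% of the sham libraries, 5.60%, 5.54% and 5.68% of the injury libraries and 1.87%, 1.97% and 1.87% of the CRC libraries. The median feature stood at 28.9% of its sham mean and 35.3% of its injury mean in the CRC group. The ratio of the CRC mean to the lower of both other means ran from 0 for Blk to 0.495, 8 features were below 10% of both means, and 9 had no count in at least 1 CRC library. Mean levels over the sham and injury libraries ran from 46.0 to 8655 CPM. CPM are not corrected for length, so that levels are not compared between features. In whole tissue, fewer cells of a type and less RNA per cell cannot be told apart.

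All 137 features passed the filter on low counts and were among the 3722 features tested. Over all tested features, edgeR's quasi-likelihood test and Benjamini-Hochberg adjustment called 447 lower in CRC than in sham libraries (12% of those tested) and 298 higher (8.01%), and against the injury libraries it called 291 lower (7.82%) and 190 higher (5.10%), with a call meaning an adjusted p under 0.05. Of the 137 features, 125 were called lower against sham and 115 against injury, from which nothing is read since the choice used these contrasts, and both comparisons share the CRC libraries. With scaling by library size alone 244 features were lower and 780 higher against sham, and 186 lower and 328 higher against injury, where the median of all features moved to 0.41 and 0.20 on the log2 scale. Under that scaling 79 features met the limits of the choice. Within a group the features varied by a median coefficient of variation of 21.7% in sham, 20.1% in injury and 31.3% in CRC libraries. The highest of the 9 libraries was a sham library for 19, 45 and 26 features, in the order of the replicates, and an injury library for 24, 10 and 13.

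Among the 12 features with the most reads, Prss23os led. It is an antisense RNA at chr7:89510007-89511873 (GRCm38), which shares 864 exon bases with Prss23, a secreted serine protease read from the other strand. Prss23os held 8817, 7819.9 and 8530.1 CPM in the sham libraries, 8664, 9223 and 8875 CPM in the injury libraries and 2399.5, 2566 and 2312 CPM in the CRC libraries. Sham and injury libraries overlapped, and all 3 CRC libraries were close to each other. The means of Prss23os were 8389 ± 513 CPM in sham, 8920.4 ± 282 in injury and 2426 ± 129 in CRC libraries (SD, n = 3), so that the CRC mean was 28.9% of the sham mean and 27.2% of the injury mean. Prss23 itself had 0 counts in all 9 libraries.

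Gm20628, at chr3:96267075-96270289, overlaps the histone genes Hist2h3b by 488 exon bases and Hist2h2bb by 381. Its level was 8504, 2739 and 4337 CPM in the sham libraries, 8111, 8740.3 and 8038 CPM in the injury libraries and 973, 1445 and 1231 CPM in the CRC libraries. Sham replicate 1 was as high as the injury libraries, the other sham libraries were far lower, and the CRC libraries lay below all of them at 23.4% of the sham mean and 14.7% of the injury mean. Histone genes exist in near-identical copies, and how far this bears on the reads of this locus was not tested. Hist2h3b had 0, 0 and 0 counts in the sham libraries, 3, 1 and 0 in the injury libraries and 0, 0 and 0 in the CRC libraries.

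Mettl23, a methyltransferase gene whose exons meet those of the splicing factor gene Srsf2, held 2574, 3561 and 2402 CPM in the sham libraries, 2004, 1615 and 2242 CPM in the injury libraries and 886, 751 and 879.8 CPM in the CRC libraries. All injury libraries were below all sham libraries, and the CRC mean was 29.5% of the sham mean and 43.0% of the injury mean. Srsf2, on its own feature, held 90.4, 60.2 and 58.0 CPM in the sham libraries, 37.6, 83.6 and 68.7 CPM in the injury libraries and 56.7, 57.0 and 97.0 CPM in the CRC libraries, and its groups overlapped. 1810014B01Rik lies opposite Hsp90b1, a chaperone of the endoplasmic reticulum, with 415 shared exon bases. This feature reached 2142, 3152 and 2359.8 CPM in the sham libraries, 1775, 1520.1 and 1978 CPM in the injury libraries and 569.9, 791 and 799.5 CPM in the CRC libraries. The sham libraries were the highest and the CRC libraries the lowest, without overlap, at 28.2% of the sham mean and 41.0% of the injury mean. Gm44170 shares 549 exon bases with Sec61a1, the channel through which nascent proteins enter the endoplasmic reticulum. Its level was 1704, 1299 and 1381 CPM in the sham libraries, 1215, 878 and 1157 CPM in the injury libraries and 439.9, 406 and 462 CPM in the CRC libraries. Sham libraries again exceeded injury libraries, and CRC stood at 29.8% of the sham mean and 40.2% of the injury mean.

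Rbbp4, a histone chaperone that binds retinoblastoma protein, held 2254, 1608 and 2201 CPM in the sham libraries, 1598, 1809 and 1718 CPM in the injury libraries and 707, 959 and 686 CPM in the CRC libraries, with sham replicate 2 inside the injury range. Its CRC mean was 38.8% of the sham mean and 45.9% of the injury mean. Sync, which encodes a muscle intermediate filament protein on the other strand, held 111, 140.4 and 101 CPM in the sham libraries, 150.4, 72.2 and 76.4 CPM in the injury libraries and 76.7, 117 and 110.4 CPM in the CRC libraries, and the groups overlapped. Gm37401, opposite the small GTPase gene Rhoa, held 1955, 1684 and 1930.4 CPM in the sham libraries, 1500.4, 1216 and 1379 CPM in the injury libraries and 519.9, 687 and 599 CPM in the CRC libraries. Every injury library was below every sham library, and CRC libraries were at 32.4% of the sham mean and 44.1% of the injury mean, while Rhoa had 0 counts in each library. Siae, an esterase of sialic acids, held 1513, 2005 and 1961 CPM in the sham libraries, 1245, 1167 and 1631 CPM in the injury libraries and 559.9, 597 and 716 CPM in the CRC libraries, and CRC libraries were at 34.2% of the sham mean and 46.3% of the injury mean. Injury replicate 3 lay within the sham range. Its tested partner Tbrg1 held 73.0, 12.03 and 58.0 CPM in the sham libraries, 56.4, 34.2 and 49.6 CPM in the injury libraries and 89.98, 93.9 and 70.3 CPM in the CRC libraries. The CRC libraries were not below the others in this partner.

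Kctd18, at chr1:57955101-58018956, shares 2455 exon bases with Sgo2a, the shugoshin that protects cohesion at centromeres. It held 1478, 858 and 936 CPM in the sham libraries, 1677, 2071 and 1837 CPM in the injury libraries and 279.9, 436 and 388 CPM in the CRC libraries. The injury libraries were all above the sham libraries, and CRC was at 33.7% of the sham mean and 19.8% of the injury mean. Sgo2a had 1 count over the 9 libraries. Pip4p1, a phosphatase of inositol lipids, shares 877 exon bases with Apex1, the endonuclease of base excision repair, and held 1381, 1628 and 1865 CPM in the sham libraries, 1572, 1113 and 1172 CPM in the injury libraries and 599.9, 698 and 602 CPM in the CRC libraries. Sham and injury overlapped, and CRC stood at 39.0% of the sham mean and 49.2% of the injury mean. Apex1 held 125, 76.2 and 77.4 CPM in the sham libraries, 102, 72.2 and 80.2 CPM in the injury libraries and 86.7, 97.3 and 63.6 CPM in the CRC libraries, with overlap of all groups.

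Med12l, a paralogue of a Mediator kinase module subunit, spans the purinergic receptor genes P2ry12, P2ry13 and P2ry14 on the other strand. Med12l held 1679.9, 1123 and 1284 CPM in the sham libraries, 1301, 1585 and 1188 CPM in the injury libraries and 417, 758 and 482 CPM in the CRC libraries, and CRC was at 40.5% of the sham mean and 40.7% of the injury mean. Sham and injury overlapped, and CRC replicate 2 was the highest of its group. Its tested exon partners were Igsf10, with 93.9, 120.3 and 108 CPM in the sham libraries, 132, 98.8 and 103 CPM in the injury libraries and 93.3, 101 and 80.3 CPM in the CRC libraries, and P2ry12, the platelet and microglial ADP receptor, with 38.3, 16.0 and 58.0 CPM in the sham libraries, 37.6, 34.2 and 49.6 CPM in the injury libraries and 6.67, 13.4 and 33.5 CPM in the CRC libraries. Igsf10 overlapped between all groups. In P2ry12 the CRC libraries overlapped the sham libraries and were below the injury libraries. Gm12744 held 1092, 2318 and 2232 CPM in the sham libraries, 1275, 528 and 1058 CPM in the injury libraries and 149.97, 131 and 151 CPM in the CRC libraries. Sham replicates 2 and 3 were the highest, injury replicate 2 was the lowest outside the CRC group, and CRC was at 7.64% of the sham mean and 15.1% of the injury mean.

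**Figure D1:**
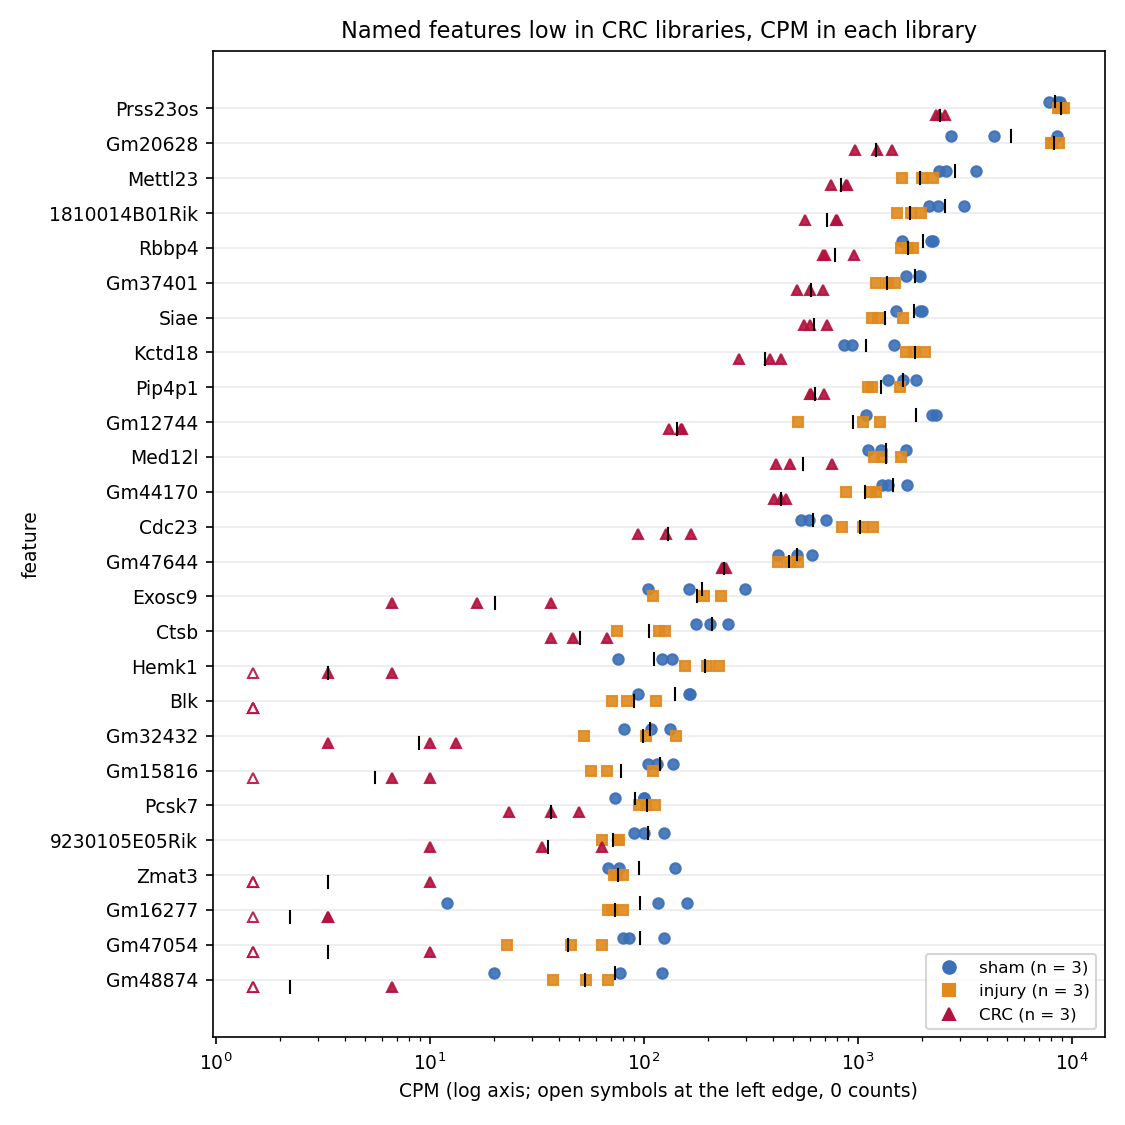
CPM (log axis) of the named features in each of the 9 libraries, with 1 symbol per library (circles sham, squares injury, triangles CRC), a bar at each group mean and open symbols at the left edge for 0 counts. Every CRC symbol lies below every sham and injury symbol of the same feature, as the choice required, and Prss23os reached 9223 CPM in injury replicate 2 and 2312 in CRC replicate 3.

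The features with the lowest CRC share were of low level, so that few counts carried them. Blk, a Src-family kinase of B lymphocytes, held 93.9, 164 and 162 CPM in the sham libraries, 71.4, 83.6 and 115 CPM in the injury libraries and 0, 0 and 0 CPM in the CRC libraries. No read was counted for Blk in any CRC library, which with a floor of 3 counts per library is at least 14.0-fold lower than sham and at least 8.96-fold lower than injury. Hemk1, a glutamine methyltransferase of release factors, held 122, 76.2 and 135 CPM in the sham libraries, 226, 198 and 157 CPM in the injury libraries and 6.67, 3.35 and 0 CPM in the CRC libraries, or 3 counts in the CRC group. From counts pooled over each group and scaled by its library sizes, CRC was at 2.99% of sham with a 95% interval of 0.605% to 9.02% and at 1.73% of injury with an interval of 0.353% to 5.15%. Intervals and floors cover counting error only. They do not cover the choice of these features for their low CRC level and are a description, not a test. Gm16277, opposite Gfra1, the co-receptor of glial cell line-derived neurotrophic factor, held 160.0, 12.03 and 116 CPM in the sham libraries, 71.4, 68.4 and 80.2 CPM in the injury libraries and 0, 3.35 and 3.35 CPM in the CRC libraries. Sham replicate 2 was near the CRC libraries, and from pooled counts CRC was at 2.24% of sham (0.267% to 8.38%) and 3.04% of injury (0.360% to 11.5%).

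Gm48874 held 122, 20.1 and 77.4 CPM in the sham libraries, 37.6, 68.4 and 53.5 CPM in the injury libraries and 6.67, 0 and 0 CPM in the CRC libraries. Again sham replicate 2 was the lowest of the sham and injury libraries. Zmat3, a p53-responsive RNA-binding protein, held 76.5, 68.2 and 139 CPM in the sham libraries, 75.2, 79.8 and 72.6 CPM in the injury libraries and 10.00, 0 and 0 CPM in the CRC libraries, and sham replicate 3 was the highest. Gm15816, opposite the ankyrin gene Ank1, held 115, 136 and 104 CPM in the sham libraries, 67.7, 57.0 and 111 CPM in the injury libraries and 6.67, 0 and 10.0 CPM in the CRC libraries. It was at 4.70% of the sham mean and 7.09% of the injury mean. Gm47054 held 80.0, 124 and 85.1 CPM in the sham libraries, 63.9, 45.6 and 22.9 CPM in the injury libraries and 0, 10.1 and 0 CPM in the CRC libraries, where injury replicate 3 was the closest to the CRC group. Gm32432, which had no position in the annotation used, held 108, 132 and 81.2 CPM in the sham libraries, 52.6, 103 and 141 CPM in the injury libraries and 13.3, 3.35 and 10.0 CPM in the CRC libraries. Its sham and injury libraries overlapped.

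At the limit of 50%, the features just inside were Pip4p1 at a ratio of 0.492, Gm47644 at 0.4947 and 9230105E05Rik at 0.4951, and those just outside were Gm10988 at 0.50003, LTO1 at 0.50017 and Hip1r at 0.50073. Gm47644 lies opposite the phospholamban gene Pln and held 612, 425 and 518 CPM in the sham libraries, 526, 483 and 424 CPM in the injury libraries and 233, 241 and 234 CPM in the CRC libraries. 9230105E05Rik held 90.4, 100.3 and 124 CPM in the sham libraries, 63.9, 76.0 and 76.4 CPM in the injury libraries and 33.3, 63.7 and 10.0 CPM in the CRC libraries. CRC replicate 2 lay just under injury replicate 1. Gm10988 held 38.3, 36.1 and 92.8 CPM in the sham libraries, 37.6, 38.0 and 38.2 CPM in the injury libraries and 10.00, 26.8 and 20.1 CPM in the CRC libraries, and Hip1r, a clathrin-binding protein, held 473, 345 and 538 CPM in the sham libraries, 545, 479 and 458 CPM in the injury libraries and 230.0, 228 and 221 CPM in the CRC libraries. In both the CRC libraries were the lowest. LTO1, which lies opposite the cyclin D1 gene Ccnd1, held 1555, 1616 and 1679 CPM in the sham libraries, 1519, 1284 and 1489 CPM in the injury libraries and 633, 765 and 749 CPM in the CRC libraries. The CRC libraries of LTO1 were below all others, as in the features inside the limit.

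Several features lay opposite genes of cell division, a grouping made after their values were seen, for which no share of the eligible features was taken. Cdc23, a subunit of the anaphase-promoting complex, shares 1271 exon bases with Kif20a, a kinesin of cytokinesis. It held 709.5, 589.5 and 545 CPM in the sham libraries, 842, 1056 and 1180.0 CPM in the injury libraries and 167, 93.9 and 127 CPM in the CRC libraries. The injury libraries were the highest, and CRC was at 21.0% of the sham mean and 12.6% of the injury mean. Kif20a held 132, 124 and 271 CPM in the sham libraries, 192, 190.0 and 244 CPM in the injury libraries and 120.0, 154 and 174 CPM in the CRC libraries. Its sham libraries overlapped both other groups, and its CRC libraries were below its injury libraries without a call. Exosc9, a core subunit of the RNA exosome, shares 510 exon bases with the cyclin A2 gene Ccna2 and held 104, 297 and 162 CPM in the sham libraries, 229, 110.2 and 191 CPM in the injury libraries and 16.7, 36.9 and 6.69 CPM in the CRC libraries. Sham and injury overlapped, and CRC was at 10.7% of the sham mean and 11.4% of the injury mean. Ccna2 held 90.4, 84.2 and 50.3 CPM in the sham libraries, 105, 95.003 and 134 CPM in the injury libraries and 40.0, 60.4 and 60.2 CPM in the CRC libraries. Against injury, Ccna2 had a log2 fold change of −1.06 ± 0.38 (SE) and an adjusted p of 0.0603 by edgeR's quasi-likelihood test and Benjamini-Hochberg adjustment, with all 3 CRC libraries below all injury libraries, and over the alternatives the adjusted p ran from 0.015 to 0.241 and was below the threshold without sham replicate 1, without sham replicate 2 and in 4 of the other 20, with 0.05 without sham replicate 3.

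Ubxn6 lies opposite the chromatin assembly factor gene Chaf1a, a pair chosen after its values were seen. Chaf1a on its own feature held 1162, 1071 and 1412 CPM in the sham libraries, 1203, 1296 and 1054 CPM in the injury libraries and 1253, 1445 and 1398 CPM in the CRC libraries. The CRC libraries of Chaf1a were thus not below the others, while its partner Ubxn6 held 445, 429 and 507 CPM in the sham libraries, 459, 384 and 393 CPM in the injury libraries and 223, 138 and 181 CPM in the CRC libraries. Of the list of 22 mitotic and replication genes, 3 were tested on their own feature, Prc1, Ccna2 and Kif20a. In either CRC comparison edgeR called 0 of them, under each scaling tried. Over all features 12% were called lower and 8.01% higher against sham, and 7.82% and 5.10% against injury. At an unadjusted p under 0.05 by edgeR, 1 of the 3, Ccna2, was lower against injury, as were 13.1% of all features. The list summed to 403, 409 and 456 CPM in the sham, 545, 448 and 584 CPM in the injury and 313, 362 and 432 CPM in the CRC libraries, 7 of its genes were at 0 and Kif20a was the most abundant with 438 counts.

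On the oestrogen-responsive list, Ctsb, a lysosomal cysteine protease, belonged to the set. Ctsb held 247, 176 and 205 CPM in the sham libraries, 75.2, 125 and 118 CPM in the injury libraries and 46.7, 67.1 and 36.8 CPM in the CRC libraries. Sham was the highest group and CRC was at 24.0% of the sham mean and 47.2% of the injury mean. Ctsb shares 774 exon bases with Fdft1, the squalene synthase of cholesterol synthesis, and Fdft1 held 341, 180.5 and 302 CPM in the sham libraries, 549, 357 and 424 CPM in the injury libraries and 279.9, 389 and 207 CPM in the CRC libraries. In Fdft1 the CRC libraries fell within the range of the sham libraries or above it, and its CRC mean was 106% of the sham mean and 65.9% of the injury mean. Of the 15 genes, 4 were tested and 2 were called lower in both CRC comparisons, where 12% and 7.82% of all features were, namely Ctsb, which the choice fixed, and Padi2, a peptidylarginine deiminase, with a log2 fold change of −2.26 ± 0.68 (SE) against sham and −2.02 ± 0.69 (SE) against injury. Against injury none of the 4 was called with library size alone. The call of Padi2 was lost against sham without sham replicate 3 and CRC replicate 3, each left out in turn (−1.96 to −1.86), without a filter (−2.23), at an adjusted p of 0.01 and without sham libraries 2 and 3 together (−2.09) and against injury without sham replicate 3, injury replicates 1, 2 and 3 and CRC replicates 1, 2 and 3, each left out in turn (−2.28 to −1.64), with upper quartile scaling (−2.02), with library size alone (−1.83), without a filter (−2.06), at an adjusted p of 0.01, with a replicate block (−1.99), with library sizes of all records (−1.83) and with libraries drawn down to the smallest total (−2.00), where the value in brackets is the log2 fold change.

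Pcsk7, a proprotein convertase, shares 108 exon bases with Tagln, an actin-binding protein of smooth muscle, and held 73.0, 100.3 and 101 CPM in the sham libraries, 113, 103 and 95.5 CPM in the injury libraries and 50.0, 23.5 and 36.8 CPM in the CRC libraries. Sham and injury were alike, and CRC was at 40.3% of the sham mean and 35.5% of the injury mean. Tagln held 69.6, 104 and 89.0 CPM in the sham libraries, 67.7, 79.8 and 57.3 CPM in the injury libraries and 46.7, 47.0 and 26.8 CPM in the CRC libraries. Its log2 fold change against sham was −1.13 ± 0.42 (SE), with an adjusted p of 0.0528 by edgeR's quasi-likelihood test and Benjamini-Hochberg adjustment and all 3 CRC libraries below all sham and all injury libraries, and over the alternatives the adjusted p ran from 0.0366, without sham replicate 1, to 0.397. Rnf214, the other partner of Pcsk7, held 1287, 766 and 855 CPM in the sham libraries, 951, 1239 and 1180.0 CPM in the injury libraries and 863, 1023 and 1000.3 CPM in the CRC libraries, with overlap of all groups.

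Of 20 contractile genes of smooth muscle 8 were tested, and 3 of them, Myh11, Cald1 and Actn1, were called lower in CRC than in sham libraries, with log2 fold changes of −1.25 ± 0.30 (SE), −0.93 ± 0.24 (SE) and −1.51 ± 0.41 (SE), where 12% of all features were called lower. Against injury 1 of the 8, Cald1, was called lower, at −0.76 ± 0.24 (SE), where 7.82% of all features were. With library size alone, 2 were called against sham and 0 against injury. The call of Cald1 was lost against sham without CRC replicates 1 and 2, each left out in turn (−0.78 to −0.74), with library size alone (−0.53), with library sizes of all records (−0.62) and without sham libraries 2 and 3 together (−0.56) and against injury without injury replicates 1, 2 and 3 and CRC replicates 1 and 2, each left out in turn (−0.82 to −0.58), with library size alone (−0.56), by DESeq2 (−0.76), at an adjusted p of 0.01 and with library sizes of all records (−0.56). Without sham libraries 2 and 3 together, Myh11 was the one of the 3 called against sham. The list summed to 1162, 1752 and 1497 CPM in the sham, 1045, 1208 and 1165 CPM in the injury and 759.9, 711 and 960.1 CPM in the CRC libraries, 0 of its genes were at 0 in all libraries, and Cald1 was the most abundant with 969 counts. The part of smooth muscle in the low CRC level of the features was not tested.

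Of 13 stromal genes 2 were tested (8.01% of all features were called higher against sham), and both Sfrp2, an extracellular Wnt antagonist, and Nr2f2, a nuclear receptor of the uterine stroma, were called higher in CRC than in sham libraries, at 1.14 ± 0.38 (SE) and 0.82 ± 0.25 (SE). Calls were lost for Sfrp2 without sham replicates 1, 2 and 3 and CRC replicate 1, each left out in turn (0.75 to 1.19), by DESeq2 (1.14), without a filter (1.16), at an adjusted p of 0.01 and without sham libraries 2 and 3 together (1.16) and for Nr2f2 without sham replicates 1 and 3 and CRC replicates 2 and 3, each left out in turn (0.72 to 0.85), without a filter (0.86), at an adjusted p of 0.01 and without sham libraries 2 and 3 together (0.96). Against injury edgeR called neither with TMM scaling, at 0.53 ± 0.36 (SE) and 0.67 ± 0.25 (SE), and called 1 of the 2 higher with library size alone or library sizes of all records. The stromal list summed to 240.0, 293 and 275 CPM in the sham, 263, 323 and 348 CPM in the injury and 473, 453 and 401 CPM in the CRC libraries, with 3 genes at 0 and Nr2f2 the most abundant (498 counts). Of 14 immune genes only Csf1r, the receptor of macrophage colony-stimulating factor, was tested, and it was called lower against sham at −1.04 ± 0.26 (SE), though not with library size alone (−0.65) or without sham libraries 2 and 3 together (−0.91), and not called against injury, at −0.76 ± 0.26 (SE). Over all features 12% were called lower against sham and 7.82% against injury. The immune list summed to 236, 285 and 309 CPM in the sham, 241, 186 and 244 CPM in the injury and 197, 131 and 134 CPM in the CRC libraries, 8 genes including Ptprc were at 0, and Csf1r led with 496 counts. Epithelial genes, 18 in the list, summed to 104, 84.2 and 101 CPM in the sham, 52.6, 72.2 and 53.5 CPM in the injury and 99.98, 124 and 73.6 CPM in the CRC libraries, with 5 at 0 and Sox17 the most abundant (137 counts), and endothelial genes, 11 in the list, to 157, 156 and 151 CPM in the sham, 135, 144 and 118 CPM in the injury and 103, 114 and 124 CPM in the CRC libraries, with 2 at 0 and Egfl7 leading (149 counts). Sox17 and Egfl7, each the sole tested gene of its list, were not called. Erythroid genes summed to 55.6, 56.1 and 50.3 CPM in the sham, 33.8, 30.4 and 30.6 CPM in the injury and 26.7, 93.9 and 36.8 CPM in the CRC libraries, with 4 of 5 at 0 and Alas2 not called. Of the adipocyte, mesothelial and Schwann cell lists 0 genes were tested, and their most abundant genes were Lep with 56, Lrrn4 with 18 and Sox10 with 37 counts, with 4 of 7, 1 of 4 and 0 of 4 genes at 0. Adipocyte genes summed to 13.9, 8.02 and 19.3 CPM in the sham, 41.4, 103 and 34.4 CPM in the injury and 0, 13.4 and 10.0 CPM in the CRC libraries, highest in the injury libraries, mesothelial genes to 13.9, 28.1 and 7.74 CPM in the sham, 7.52, 22.8 and 0 CPM in the injury and 13.3, 6.71 and 13.4 CPM in the CRC libraries, and Schwann cell genes to 24.3, 0 and 27.1 CPM in the sham, 15.0, 34.2 and 22.9 CPM in the injury and 43.3, 50.3 and 26.8 CPM in the CRC libraries. Most reads lay in no feature, so that these sums and the genes at 0 do not give the abundance of a cell type. The part of these cell types in the level of the 137 features was not tested.

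Of 14 hedgehog and progesterone genes, Pgr and Nr2f2 were tested. Nr2f2 was the one called higher against sham, where 8.01% of all features were. Of 35 genes of the non-collagen matrix, Timp3, an inhibitor of metalloproteinases, was tested. It was called higher against sham, at 1.15 ± 0.37 (SE), where 8.01% of all features were. Of 15 genes measured by qRT-PCR in the study, Ccnd1, Col1a1 and Pgr were tested. Col1a1, the chain of type I collagen, was called lower against sham, at −2.74 ± 0.66 (SE), where 12% of all features were. Timp3 lost its call without sham replicates 2 and 3 and CRC replicates 1 and 3, each left out in turn (0.79 to 1.13), with the compared groups alone (1.14), at an adjusted p of 0.01 and without sham libraries 2 and 3 together (0.33) and Col1a1 without sham replicate 3 (−2.28), and without sham libraries 2 and 3 together (−1.83). Against injury edgeR called 0 genes of these 3 lists with TMM scaling, with Timp3 at 0.80 ± 0.36 (SE) and Col1a1 at −1.44 ± 0.72 (SE), and called 1 of the hedgehog and progesterone genes higher with library size alone or library sizes of all records. Over all features 7.82% were called lower and 5.10% higher against injury. None of the genes of these 3 lists belonged to the 137 features.

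By position, 87 of the 137 features (63.5%) shared exon bases with a gene on the other strand, against 1972 of the 3243 eligible features (60.8%), and 29 (21.2% against 19.1%) lay inside or across a gene of the other strand without meeting its exons. A further 17 (12.4% against 17.9%) had no gene opposite and 4 could not be placed. The set was near the eligible features in these shares. Annotated antisense RNAs were 34 of the 137 (24.8%, against 17.4% of eligible features) and protein-coding genes 70 (51.1% against 60.1%). Each autosome held at least 1 of the features, for example 15 of 227 eligible on chromosome 5, 10 of 142 on chromosome 10 and 1 of 123 on chromosome 12, and 0 of 49 were on the X chromosome.

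In 9 places, 20 of the features lay within 100000 bases of each other. The longest such run, a place chosen after its values were seen, was within the span of Sdk1, an adhesion molecule of the immunoglobulin superfamily, on chromosome 5. There Gm6433, Gm43708, Gm43556 and Gm43557 followed each other on the minus strand, inside the introns of Sdk1, which is read from the plus strand at chr5:141241490-142215586. Between the outer ends of these 4 no other feature was eligible. Gm43557, at chr5:141315765-141318134, held 838, 854 and 898 CPM in the sham libraries, 974, 999 and 844 CPM in the injury libraries and 113, 225 and 90.3 CPM in the CRC libraries. Gm43708, at chr5:141297143-141298103, held 278, 345 and 364 CPM in the sham libraries, 301, 304 and 401 CPM in the injury libraries and 33.3, 57.0 and 40.1 CPM in the CRC libraries. Gm6433, at chr5:141267581-141268455, held 292, 678 and 344 CPM in the sham libraries, 316, 323 and 283 CPM in the injury libraries and 137, 97.3 and 30.1 CPM in the CRC libraries, and Gm43556, at chr5:141307387-141308067, held 243, 221 and 271 CPM in the sham libraries, 196, 232 and 233 CPM in the injury libraries and 46.7, 70.4 and 33.5 CPM in the CRC libraries. The 4 were each low in the CRC libraries, as the choice required, and no share of such runs among the eligible features was taken. Sdk1 had 0, 2 and 0 counts in the sham libraries and 0 in each other library.

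At chr3:59005825-59318682, Med12l and P2ry14, a receptor of UDP-glucose, were in the set while Gpr171, Igsf10 and P2ry13, the other eligible features of the region, were not. P2ry14 held 539, 722 and 565 CPM in the sham libraries, 523, 600.4 and 599.5 CPM in the injury libraries and 299.9, 208 and 321 CPM in the CRC libraries. Sham and injury overlapped in P2ry14 and CRC was at 45.4% of the sham mean and 48.1% of the injury mean. Elk4, an ETS-family factor, and Gm37676 formed another pair, where the eligible neighbour Mfsd4a did not belong to the set, and further pairs were Tmem102 and Plscr3, Arrb1 and Gm10605, Gm48840 and Scn2b, Gm44264 and Gm44170, Shisa3 and Gm15478, and Arhgap27os2 and Arhgap27os3. The eligible neighbours Tnk1, beside Tmem102 and Plscr3, and Gm44914, beside Arrb1 and Gm10605, did not belong to the set either. Tnk1 held 27.8, 40.1 and 50.3 CPM in the sham libraries, 52.6, 19.001 and 26.7 CPM in the injury libraries and 30.0, 50.3 and 40.1 CPM in the CRC libraries, with overlap of all groups. Gm44914 held 59.1, 160.4 and 174 CPM in the sham libraries, 63.9, 95.003 and 137 CPM in the injury libraries and 223, 134 and 241 CPM in the CRC libraries, and its CRC mean was 152% of the sham mean and 202% of the injury mean, above both where that of Arrb1 was below. Arrb1, the arrestin that uncouples activated receptors, held 115, 100.3 and 189.6 CPM in the sham libraries, 196, 95.003 and 111 CPM in the injury libraries and 13.3, 10.1 and 36.8 CPM in the CRC libraries. Injury replicate 1 and sham replicate 3 were the highest, and these pairs were chosen after their values were seen.

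Oxtr, the oxytocin receptor, had no exon of another gene opposite it and was singled out after its values were seen. It held 90.4, 148 and 96.7 CPM in the sham libraries, 109, 83.6 and 84.0 CPM in the injury libraries and 16.7, 13.4 and 26.8 CPM in the CRC libraries. The CRC libraries were far below the rest, at 16.9% of the sham mean and 20.5% of the injury mean, and sham and injury overlapped. Whether these reads came from the strand of Oxtr was not tested. Cav3, a caveolin of muscle, ends 810 bases from the end of Oxtr on the other strand and had 0, 3 and 1 counts in the injury libraries, 1 in CRC replicate 1 and 0 in the rest. Acbd5, a peroxisomal acyl-CoA-binding protein, ends 47 bases from Mastl, a kinase of mitotic entry. Acbd5 held 268, 184 and 221 CPM in the sham libraries, 218, 395 and 290.2 CPM in the injury libraries and 63.3, 60.4 and 40.1 CPM in the CRC libraries, while counts of Mastl were 18, 4 and 13 for sham, 17, 29 and 15 for injury and 36, 40 and 29 for CRC libraries. In counts not scaled to the library, Mastl was higher in every CRC library than in every sham library. Its lowest CRC count equalled its highest injury count, at 29, while Acbd5 was low in the CRC group.

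**Figure D2:**
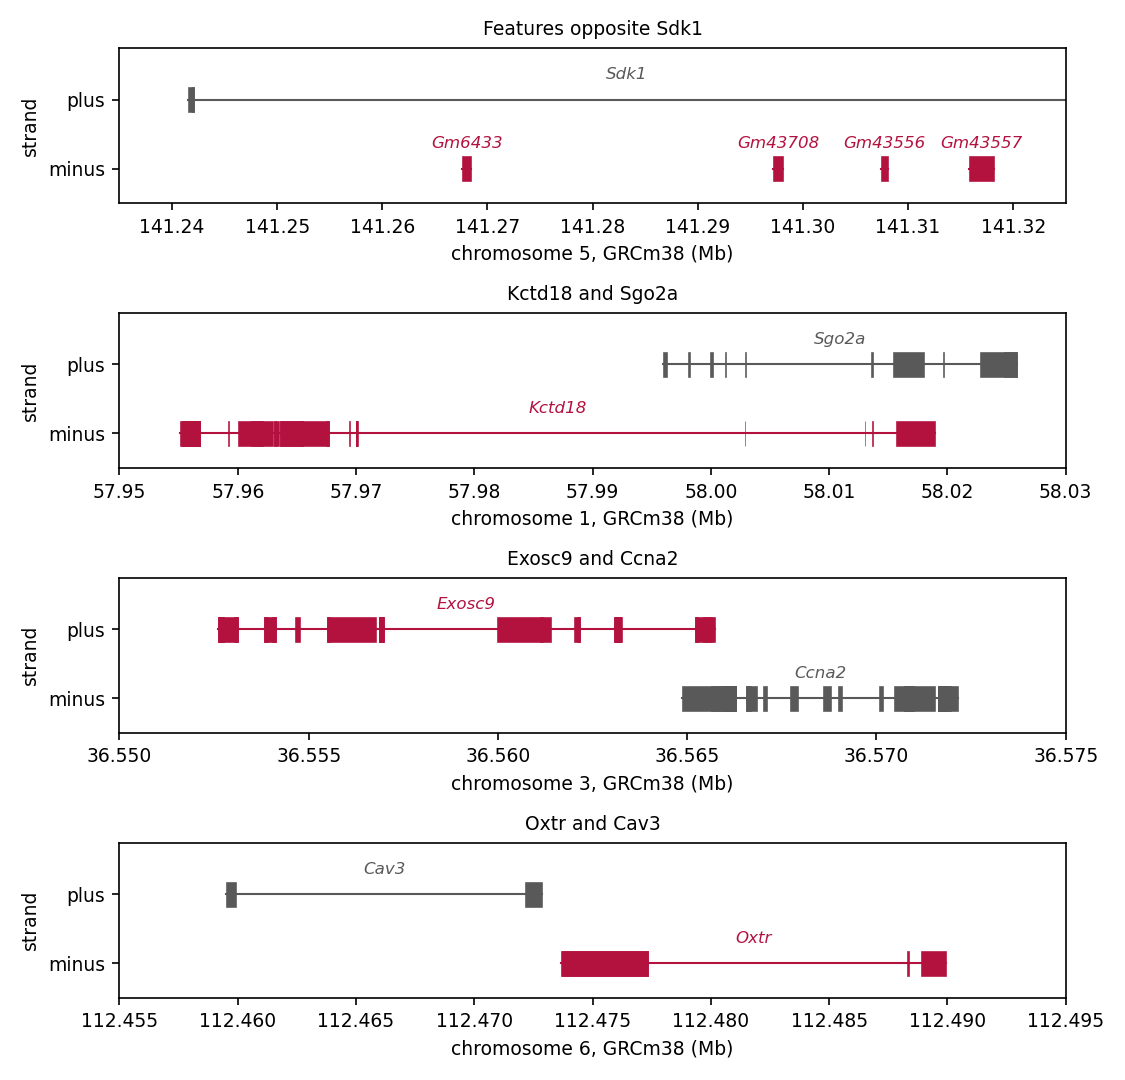
Maps, to scale in bases of GRCm38, of the exons (boxes) and introns (lines) at the Sdk1, Kctd18, Exosc9 and Oxtr loci, with position on the horizontal axis in Mb, strand on the vertical axis and features of the set in red. The 4 features of the Sdk1 locus lie within its introns, and Kctd18 shares 2455 exon bases with Sgo2a.

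The promoters of a feature of the set with no gene opposite and of 2 genes on the other strand are shown so that the start regions can be compared, each as the 250 bases before the start in RefSeq GRCm38.p6. Promoters were searched on both strands for CCAAT, the box of nuclear factor Y, and TTTGAA, letters of the cell cycle homology region. Of 32851 promoters, 33.8% held CCAAT and 16.0% TTTGAA. Capitals mark the matches. Sgo2a, at chr1:57995724-57995973 on the plus strand, held neither. Ncapg, opposite Lcorl and at chr5:45669675-45669924 on the plus strand, held 1 of each, CCAAT as ATTGG on the other strand. Oxtr, at chr6:112489826-112490075 on the minus strand, held TTTGAA 1 time, as TTCAAA on the other strand. The starts of RefSeq are not always those of GENCODE M21, and 118 of the 250 bases of Oxtr, 3 of those of Sgo2a and 6 of those of Ncapg lie in exons of the gene there. A match is a description of the letters and not of a bound site.
Sgo2a: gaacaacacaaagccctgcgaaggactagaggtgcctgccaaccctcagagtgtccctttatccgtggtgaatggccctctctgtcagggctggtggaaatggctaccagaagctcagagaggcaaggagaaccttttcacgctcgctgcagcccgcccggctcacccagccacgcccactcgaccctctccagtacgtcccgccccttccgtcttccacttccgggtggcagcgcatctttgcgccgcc
Ncapg: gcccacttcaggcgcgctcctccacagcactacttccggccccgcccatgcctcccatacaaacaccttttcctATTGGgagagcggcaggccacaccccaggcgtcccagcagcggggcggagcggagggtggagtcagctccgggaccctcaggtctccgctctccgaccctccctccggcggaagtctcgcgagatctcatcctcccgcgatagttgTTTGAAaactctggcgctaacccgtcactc
Oxtr: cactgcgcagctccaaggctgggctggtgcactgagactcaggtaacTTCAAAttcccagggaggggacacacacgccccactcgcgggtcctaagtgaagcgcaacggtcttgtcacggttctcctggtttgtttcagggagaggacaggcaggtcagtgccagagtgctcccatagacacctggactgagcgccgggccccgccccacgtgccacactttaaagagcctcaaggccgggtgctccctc

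The genes opposite the features were compared on their own counts, which the choice had not used. The 87 features met the exons of 112 genes on the other strand, 90 of them protein coding, and 111 of these were in the files. These genes held few counts. 23 had 0 counts in all libraries, 27 had 1 to 9, and 39 were tested. In 69 of the 87 cases (79.3%) the feature held more counts than each gene opposite it, as did 77.0% of the eligible features with an exon opposite. A minimum was set for the counts of features and not for those of the genes opposite. Against sham, edgeR's quasi-likelihood test and Benjamini-Hochberg adjustment called 3 of the 39 lower in CRC libraries (12% of all features tested were called lower) and 6 higher (8.01% of all), and against injury 2 lower (7.82% of all) and 5 higher (5.10% of all). Their median log2 fold change was 0.06 against sham and 0.01 against injury, beside 0.03 and 0.01 over all features. With TMM scaling 18 of the 39 were negative and 21 positive in both CRC comparisons. A centre near 0 follows the scaling, since with library size alone the medians of all features were 0.41 and 0.20. With library size alone 14 partners were called against sham, where 244 of all 3722 features were called lower and 780 higher. Against injury 4 were called without injury replicate 1, without injury replicate 3, without CRC replicate 1 and without CRC replicate 3, each taken out in turn. In the same order 218, 219, 227 and 214 of all features were called lower.

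Pln, phospholamban, the regulator of the calcium pump in muscle, shares 1644 exon bases with Gm47644 and was high where Gm47644 was low. Pln held 309.5, 237 and 368 CPM in the sham libraries, 263, 315 and 259.7 CPM in the injury libraries and 573, 761 and 642 CPM in the CRC libraries. All 3 CRC libraries were above all others, by a log2 fold change of 1.09 ± 0.20 (SE) against sham and 1.22 ± 0.20 (SE) against injury. The adjusted p values by edgeR's quasi-likelihood test and Benjamini-Hochberg adjustment were 0.000193 at a log2 fold change of 1.09 against sham and 7.64e-05 at 1.22 against injury, with the direction shown by 3 of 3 CRC libraries, and over the alternatives they ran from 7.2e-06 to 0.00422 and from 8.3e-09 to 0.00245. 4932422M17Rik, which lies opposite AI480526, held 873, 938 and 913 CPM in the sham libraries, 824, 965 and 779 CPM in the injury libraries and 1533, 1415 and 1576 CPM in the CRC libraries, and was called higher in both comparisons, at 0.71 ± 0.15 (SE) and 0.80 ± 0.15 (SE). Gm38102, also opposite AI480526, held 640.0, 858 and 956 CPM in the sham libraries, 613, 543 and 619 CPM in the injury libraries and 1106, 1033 and 1040.4 CPM in the CRC libraries and was called against injury, at 0.83 ± 0.17 (SE). AI480526 itself held 118, 120.3 and 124 CPM in the sham libraries, 71.4, 144 and 72.6 CPM in the injury libraries and 36.7, 60.4 and 43.5 CPM in the CRC libraries.

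Coro1c, an actin-binding coronin opposite Gm17122, held 20.9, 28.1 and 46.4 CPM in the sham libraries, 41.4, 49.4 and 19.1 CPM in the injury libraries and 113, 117 and 100.4 CPM in the CRC libraries. All CRC libraries were above all others, at 1.77 ± 0.45 (SE) against sham and 1.57 ± 0.44 (SE) against injury, and the call against injury, held in 15 of 21 alternatives, was lost without injury replicates 1 and 3 and CRC replicates 1 and 2, each left out in turn (1.24 to 1.64), without a filter (1.52) and at an adjusted p of 0.01. Cenpp, a centromere protein opposite Ippk, held 38.3, 28.1 and 54.2 CPM in the sham libraries, 33.8, 45.6 and 26.7 CPM in the injury libraries and 99.98, 111 and 76.9 CPM in the CRC libraries and was called higher in both comparisons, although the call held in 7 of 21 alternatives against sham and 14 of 21 against injury and was lost against sham without sham replicates 1 and 2, injury replicates 1 and 3 and CRC replicates 1, 2 and 3, each left out in turn (1.00 to 1.36), by DESeq2 (1.23), without a filter (1.25), with the compared groups alone (1.20), at an adjusted p of 0.01, with a replicate block (1.21), with libraries drawn down to the smallest total (1.15) and without sham libraries 2 and 3 together (1.23) and against injury without injury replicates 1 and 3 and CRC replicates 1, 2 and 3, each left out in turn (1.23 to 1.53), without a filter (1.37) and at an adjusted p of 0.01. Surf4, a cargo receptor of the secretory pathway opposite Surf2, and Cxadr, the coxsackievirus and adenovirus receptor opposite Btg3, were called higher against sham at 1.21 ± 0.41 (SE) and 1.02 ± 0.37 (SE), with every CRC library above every sham library, and in 11 and 6 of 21 alternatives. Calls were lost for Surf4 without sham replicates 2 and 3 and CRC replicates 1, 2 and 3, each left out in turn (1.05 to 1.27), by DESeq2 (1.21), without a filter (1.23), with the compared groups alone (1.19), at an adjusted p of 0.01 and without sham libraries 2 and 3 together (0.72) and for Cxadr without sham replicates 2 and 3, injury replicates 1, 2 and 3 and CRC replicates 1, 2 and 3, each left out in turn (0.73 to 1.14), by DESeq2 (1.02), without a filter (1.04), with the compared groups alone (1.00), at an adjusted p of 0.01, with a replicate block (1.05), with libraries drawn down to the smallest total (0.87) and without sham libraries 2 and 3 together (0.70). All these genes were named after their values were seen.

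Lower partners were Mfsd4a, Ptgdr2 and Rangrf. Mfsd4a, a membrane transporter that meets Elk4 in 84 exon bases, held 6563, 7323 and 7482 CPM in the sham libraries, 6077, 5430.4 and 5457 CPM in the injury libraries and 4422, 4195 and 4115 CPM in the CRC libraries. Sham was the highest and CRC the lowest group, at −0.77 ± 0.12 (SE) and −0.43 ± 0.12 (SE), the latter call being lost without injury replicate 1 and CRC replicates 2 and 3, each left out in turn (−0.42 to −0.39), with library size alone (−0.23), at an adjusted p of 0.01 and with library sizes of all records (−0.23), while Elk4 held 163, 172 and 151 CPM in the sham libraries, 154, 122 and 145 CPM in the injury libraries and 33.3, 36.9 and 40.1 CPM in the CRC libraries. Ptgdr2, a receptor of prostaglandin D2 opposite Ccdc86, held 108, 124 and 73.5 CPM in the sham libraries, 37.6, 91.2 and 95.5 CPM in the injury libraries and 30.0, 40.2 and 10.0 CPM in the CRC libraries. It was called lower against sham, at −1.93 ± 0.48 (SE), and against injury, at −1.48 ± 0.49 (SE), where injury replicate 1 overlapped the CRC libraries and the call held in 10 of 21 alternatives and was lost without injury replicates 2 and 3 and CRC replicates 1 and 3, each left out in turn (−1.57 to −1.11), with library size alone (−1.29), by DESeq2 (−1.50), without a filter (−1.52), at an adjusted p of 0.01, with a replicate block (−1.51), with library sizes of all records (−1.28) and with libraries drawn down to the smallest total (−1.43). Rangrf, a nuclear import factor opposite Slc25a35, held 97.4, 261 and 85.1 CPM in the sham libraries, 75.2, 30.4 and 68.7 CPM in the injury libraries and 23.3, 30.2 and 46.8 CPM in the CRC libraries. The call against sham was at −2.14 ± 0.46 (SE), and sham replicate 2 was the highest library. Over the alternatives the log2 fold change ran from −2.45 to −1.49, and the call held in 21 of 21.

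**Figure D3:**
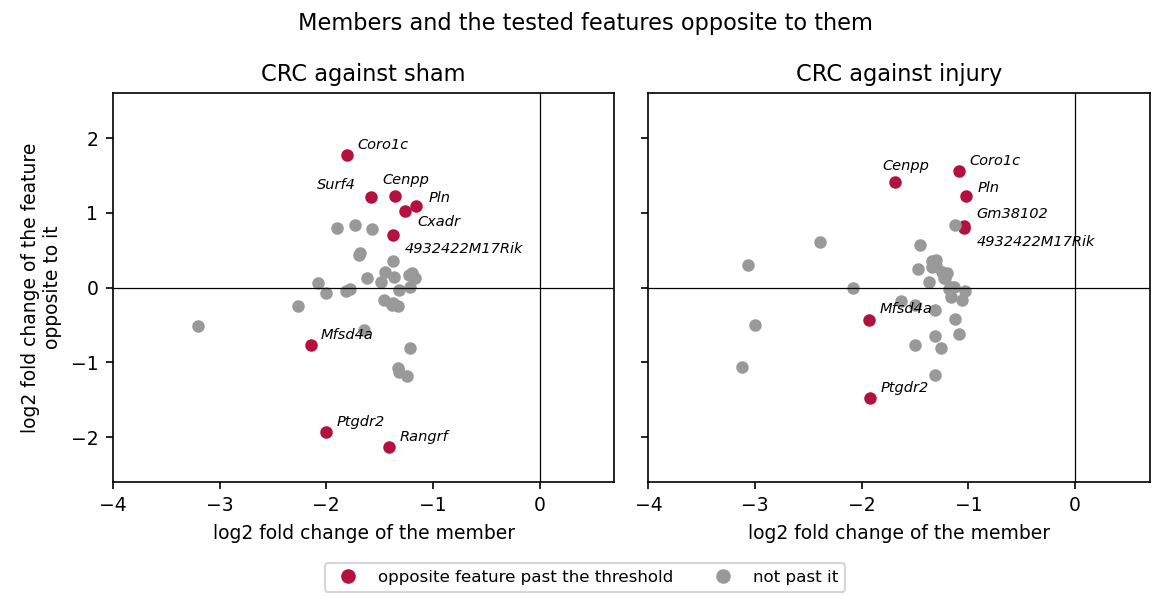
Log2 fold change of each tested opposite-strand gene (vertical axis) against that of the feature it overlaps (horizontal axis), for CRC against sham and CRC against injury, with called genes in red and labelled and the others in grey. Features lie below 0 by choice. With TMM scaling the genes opposite scatter about 0, with Pln at 1.09 and 1.22 and Mfsd4a at −0.77 and −0.43.

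Injury and sham libraries were the comparison that the choice did not contrast, although both means entered its limits. Over all features edgeR's quasi-likelihood test and Benjamini-Hochberg adjustment called 16 of 3722 (0.430%), 10 higher and 6 lower, and it called 0 of the 137. At an unadjusted p under 0.05, 24 of the 137 were seen, 19 lower (13.9%, against 7.23% of all features) and 5 higher (3.65%, against 5.35%) in injury, and DESeq2 called 4 (Kctd18, Cdc23, Gm17122 and Mettl23) of the 137 and 24 of all features. Sham replicate 1 bore on this comparison. Without it, 10 of the 137 and 154 of all features were called, among them Kctd18, Cdc23, Gm20628 and Gm12744. Without sham replicate 3, 3 of all features were called, without injury replicates 1, 2 and 3 in turn 8, 3 and 4, and without CRC replicate 3, 10. Without CRC replicate 1, 1 of the 137 and 13 of all features were called. Of the 137, 94 had a negative log2 fold change and 43 a positive one, with a median of −0.17, beside 1881 and 1841 and −0.01 over all features. With library size alone 65 were negative and the median was 0.02, beside 0.18 over all features, so that the sign of the median turned with the scaling. All injury libraries were below all sham libraries in 19 of the 137 (13.9%, against 7.60% of all features) and above them in 6 (4.38%, against 8.17%). Since the sham and injury levels entered the choice, nothing is read from these differences between the 137 and all features.

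Kctd18 and Cdc23 were the nearest to a call. For Kctd18 the log2 fold change of injury against sham was 0.76 ± 0.19 (SE) with an adjusted p of 0.057 by edgeR's quasi-likelihood test and Benjamini-Hochberg adjustment, higher in 3 of 3 injury libraries than in every sham library, and over the alternatives the adjusted p ran from 9.77e-05 to 0.743 and passed the threshold in 10 of 22. For Cdc23 it was 0.73 ± 0.19 (SE) with an adjusted p of 0.0784 by the same edgeR quasi-likelihood test and Benjamini-Hochberg adjustment, higher in 3 of 3 injury libraries, with a range from 0.00747 to 0.561 and a pass in 5 of 22. Both lie opposite genes of cell division, Sgo2a and Kif20a, and DESeq2 called both. Sgo2a was not tested, and Kif20a was not called. Gm17122, which lies opposite Coro1c, held 602, 1051 and 824 CPM in the sham libraries, 478, 498 and 535 CPM in the injury libraries and 227, 208 and 281 CPM in the CRC libraries. Its sham libraries were the highest, and its log2 fold change was −0.72 ± 0.20 (SE). Gm11537, which held 118, 132 and 143 CPM in the sham libraries, 45.1, 38.0 and 76.4 CPM in the injury libraries and 16.7, 23.5 and 36.8 CPM in the CRC libraries, was the furthest below 0, at −1.30 ± 0.40 (SE), and Sap18, a subunit of a histone deacetylase complex, which held 27.8, 28.1 and 34.8 CPM in the sham libraries, 52.6, 114 and 64.9 CPM in the injury libraries and 10.00, 6.71 and 10.0 CPM in the CRC libraries, was the furthest above, at 1.33 ± 0.53 (SE). Gm17122, Gm11537 and Sap18 were chosen after their values were seen. Of the 39 partners 0 were called by edgeR between injury and sham and 0 by DESeq2, with 5 at an unadjusted p under 0.05 (12.8%, against 12.6% of all features), 3 lower and 2 higher. Without sham replicate 1, 5 partners were called, where 154 of all features were.

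**Figure D4:**
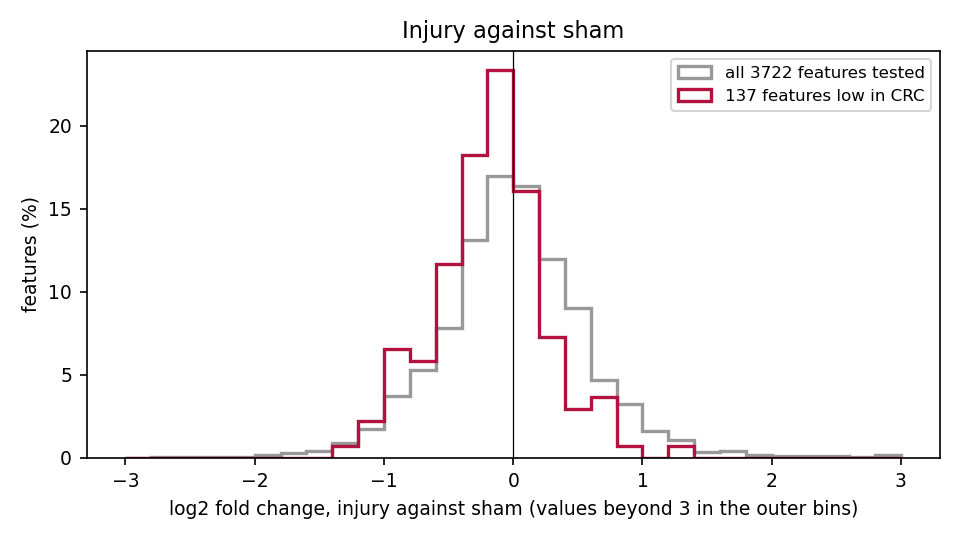
Histogram of the log2 fold change of injury against sham (horizontal axis) for the 137 features and for all 3722 features tested, as a share of each (vertical axis, percent). The 137 have a median of −0.17 and run from −1.30 to 1.33, and all features have a median of −0.01.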

How the data were processed

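For every library the authors deposited, without normalization, the count of reads per feature. HISAT2 2.1.0 and StringTie 2.1.1 are named in the submitters' notes, the file names and the 5 entries for uncounted reads are those of htseq-count, and the sources used here give neither its version nor its strand setting. These 5 entries held 99.10% to 99.22% of the records of a library and stayed out of library sizes. Features were placed by symbol on GENCODE M21 (GRCm38), where 53456 matched 1 gene and held 98.4% of the counts. An opposite-strand partner shares at least 1 exon base with a feature. In R 4.3.3, edgeR 4.0.16 scaled the counts by TMM and fitted all 9 libraries together (filterByExpr, robust quasi-likelihood test, Benjamini-Hochberg adjustment, no covariates), after a test on simulated data. DESeq2 1.42.0 was an alternative. Members and lists were chosen with earlier results of these data known. Members were named when they were among the 12 with the highest mean CPM in sham and injury libraries or the 8 with the lowest CRC ratio, when they or their partner were on a list, when they were called between injury and sham, or when they were among the 3 nearest the limit on either side, with tested partners of the first of these. Other features were chosen after their values were seen.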

Additional observations from a re-analysis of the deposited data

How the results depend on the processing

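The 137 features were recounted under other settings. They numbered 79 with library size alone, 207 at a total of at least 45, 88 at a total of at least 180, 80 at a ratio of at most 0.4, 272 at a ratio of at most 0.67, 87 with library sizes of all records, and 127 to 148 with each library left out in turn, of which 84 were found each time. Features lower in CRC than in sham libraries numbered 244 with library size alone, 297 with at least 10 counts in every library and 281 with all records, in place of 447, and 323 to 529 with each library left out. Features lower than in injury libraries numbered 186 with library size alone, 185 at an adjusted p of 0.01, 189 with all records and 450 without sham libraries 2 and 3, in place of 291, and 214 to 382 with each library left out. Between injury and sham, 6 features were called with the compared groups alone, 5 at an adjusted p of 0.01, 9 without sham libraries 2 and 3, where the lone sham library was taken to vary like the other groups, and 3 to 154 with each library left out, in place of 16. Of the 137, 0 called became 1 with upper quartile scaling (20 of all features), 2 with library size alone (21), 4 with DESeq2 (24), 3 without a filter (24) and 2 with at least 10 counts in every library (19). The count was 1 with all records (17), 1 with libraries drawn down to the smallest total (18), 1 without the 3 features with the most counts (19) and 0 to 10 with each library left out (3 to 154). Opposite-strand partners called against sham numbered 14 with library size alone, 5 with at least 10 counts in every library, 14 with all records and 6 to 13 with each library left out, in place of 9. Over all features, 780 were called higher against sham with library size alone and 643 with all records, in place of 298. Against injury the partners called numbered 4 without a filter, 3 at an adjusted p of 0.01 and 4 to 9 with each library left out, in place of 7, and between injury and sham 0 to 5. Of all features 271 were lower against injury without a filter and 185 at an adjusted p of 0.01. With a replicate block, the counts of called features were 412 and 262 lower in CRC, 5 between injury and sham with 0 of the 137, and 7, 6 and 0 partners. Correlations of same-numbered libraries ran from −0.096 to 0.080 and those of other pairs from −0.069 to 0.115. The labels give the replicate numbers without a meaning, and these values cannot decide whether the numbers pair the libraries. Signs turned in uncalled injury to sham log2 fold changes. Prss23os came to −0.0102 and Gm20628 to −0.0625 without sham libraries 2 and 3. Med12l came to 0.0287 with upper quartile, 0.16 with library size alone, 0.0493 without a filter, 0.0200 with at least 10 counts, 0.00671 with the compared groups alone, 0.0713 with all records and −0.14 to 0.18 with a library left out. With a library left out, Gm16277 ran from −0.93 to 0.19 and Gm48874 from −0.92 to 0.12, both highest without sham replicate 1, and Zmat3 from −0.51 to 0.0565, highest without sham replicate 3. Gm32432 came to 0.0667 with library size alone and −0.46 to 0.18 with a library left out. Exosc9 came to 0.12 with library size alone, 0.0030 without a filter, 0.0189 with the replicate block, 0.0312 with all records, 0.73 without sham libraries 2 and 3 and −0.37 to 0.40 with a library left out. Gm47644 came to 0.0517 with library size alone and −0.26 to 0.0211 with a library left out. The cause was not tested. All features had median log2 fold changes of 0.41, 0.20 and 0.18 with library size alone and 0.32, 0.21 and 0.09 with all records, for CRC against sham, CRC against injury and injury against sham. Calls higher were 40.0%, 39.5% and 62.5% of all calls as reported, 76.2%, 63.8% and 90.5% with library size alone and 69.6%, 63.9% and 82.4% with all records. Of 179 recounts 135 lay within 1.5 times the reported count, and of 1214 single values 1023 kept sign and side of the threshold, 131 lost and 31 gained it. Column sums over all features, libraries of all records, drawn-down libraries and those without the 3 top features or without sham libraries 2 and 3 were chosen after seeing the data.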
